A study of Mus musculus with 8 samples.

Results

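The genes described here encode the amino acid and neurotransmitter transporters of 7 solute carrier families, measured by RNA sequencing in sorted distal convoluted tubule fragments of mouse kidney. Members were the protein-coding genes with a symbol in the Slc1a, Slc3a, Slc6a, Slc7a, Slc36a, Slc38a or Slc43a series, leaving out the osmolyte carriers Slc6a6 and Slc6a12. The rule found 62 of the 42416 gene identifiers in the count table: 7 in Slc1, 2 in Slc3, 19 in Slc6, 16 in Slc7, 4 in Slc36, 11 in Slc38 and 3 in Slc43. Of these, 42 reached 10 counts in at least 4 libraries and were tested with 14444 genes in all, and 20 were not tested. Slc7a6os was caught by its name alone, which records its position on the strand opposite Slc7a6, and it belongs to no carrier family.

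The KO group held 4 libraries from Cnb1fl Tg/Tg mice and the Control group 4 libraries from Cnb1fl wt mice. All 8 animals also carried NCCcre Tg/+ and TOMATO Tg/+, and all received tamoxifen by gavage, 2 mg a day to each animal over 5 days, so the Cre transgene, the reporter and the drug were common to both groups. Cnb1, listed as Ppp3r1, encodes calcineurin's regulatory subunit, which the phosphatase needs to work, and the comparison asks what its loss from cells with this Cre does to their RNA. NCC is the sodium chloride cotransporter by which distal convoluted tubule cells are known. Tubules were taken 3 weeks after induction, and each library was made from 1000 sorted fragments of 1 animal; age and sex were not given.

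Amino acids filtered in the kidney are taken back chiefly in the proximal tubule, where sodium-coupled or exchange carriers bring them across the apical membrane and other carriers release them towards the blood. Members of Slc3 are heavy chains that form dimers with Slc7 light chains and bring them to the membrane, whereas Slc6, Slc1, Slc36, Slc38 and Slc43 carriers work without them. Many of these proteins are best known from neurons, where Slc6 and Slc1 members clear transmitters such as serotonin, glycine, GABA and glutamate from the synapse, and Slc38a9 is known as a lysosomal arginine sensor of the growth kinase mTORC1.

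Total counts ranged from 18161442 to 45150953 per library, and the transporters took 0.222% to 0.237% of them in KO libraries, against 0.150% to 0.252% in Control libraries. Markers of the distal convoluted tubule were abundant in every library. Their 8 genes summed to 7676 to 11538 CPM in KO and 12846 to 17662 CPM in Control. CPM means counts per 1000000 of the scaled library size. By the test used below 4 of the 8 were lower in KO, and 2 of the 8 had a positive log2 fold change. Markers of the proximal tubule were abundant too: 15 genes summed to 8963, 6811, 11572 and 4382 CPM in the KO libraries and to 7127, 14721, 17083 and 8484 CPM in the Control libraries, all 15 had a negative log2 fold change, and none of the 15 passed the test. The 2 groups overlapped on this sum, and KO 4 was the lowest library. Kap alone made up most of the sum in every library. Its values were 5174, 4024, 7284 and 2598 CPM in KO and 5265, 8046, 11304 and 4542 CPM in Control. The sum without Kap was not computed. The 9 leukocyte markers, none at 0 throughout, summed to 76.8, 25.7, 20.3 and 48.1 CPM in KO, against 10.1, 11.6, 11.8 and 13.1 CPM in Control, which did not overlap. One gene, Csf1r, carried most of that sum in every library but KO 2, with 72.3 CPM in KO 1. Without it the sums were 4.55, 13.3, 7.0 and 15.2 CPM in KO, against 3.02, 5.61, 3.97 and 5.56 CPM in Control, which overlapped. KO 4, at 42.86, and Control 1, at -30.79, lay at the ends of the first and second principal components. Ppp3r1 itself had 80.8, 74.0, 97.7 and 92.5 CPM in KO and 108, 97.4, 99.8 and 84.3 CPM in Control (log2 fold change -0.18 ± 0.13 SE, adjusted p = 0.549 in edgeR), so its level did not check the labels; the deleted exons were not examined. In bulk libraries fewer cells of a type and less RNA per cell cannot be told apart.

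No transporter gene passed the test between KO and Control. Of the 42 tested members, 0 reached an adjusted p under 0.05 in edgeR's quasi-likelihood test with Benjamini-Hochberg adjustment over all 14444 genes, of which 2.06% did (1.23% higher and 0.838% lower in KO). At an unadjusted p under 0.05 the count was 5 of 42 (11.9%), beside 13.9% of all genes, so the transporters' share was near the background. DESeq2 put 3 members past its adjusted threshold, Slc6a14, Slc6a17 and Slc6a7, with 5.21% of all genes, and limma-voom put 2, Slc6a14 and Slc6a7, with 3.54% of all genes. The member nearest to the threshold was Slc6a14, a broad-range amino acid carrier driven by sodium and chloride, whose KO mean was 5.55 ± 2.56 CPM and whose Control mean was 1.59 ± 0.63 CPM (SD, n = 4 each).

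The log2 fold changes of the 42 members, KO over Control, ran from -1.96 for Slc6a7 to 1.81 for Slc6a14 with a median of -0.22, and 38.1% of them were positive. Over all tested genes the median was -0.02 and 47.1% were positive. In the Slc6 family 2 of 12 tested members, Slc6a14 and Slc6a8, had a positive value and the family median was -0.54. Positive values were found in 5 of 11 Slc7 genes, 4 of 8 Slc38 genes, 2 of 5 Slc1 genes, 2 of 2 Slc36 genes, 1 of 2 Slc43 genes and 0 of 2 Slc3 genes. With library totals in place of scaled library sizes, the median of all genes was 0.13 and that of the members -0.10, and the share of higher calls among all calls was 73.0%, against 59.4% with scaling.

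**Figure D1:**
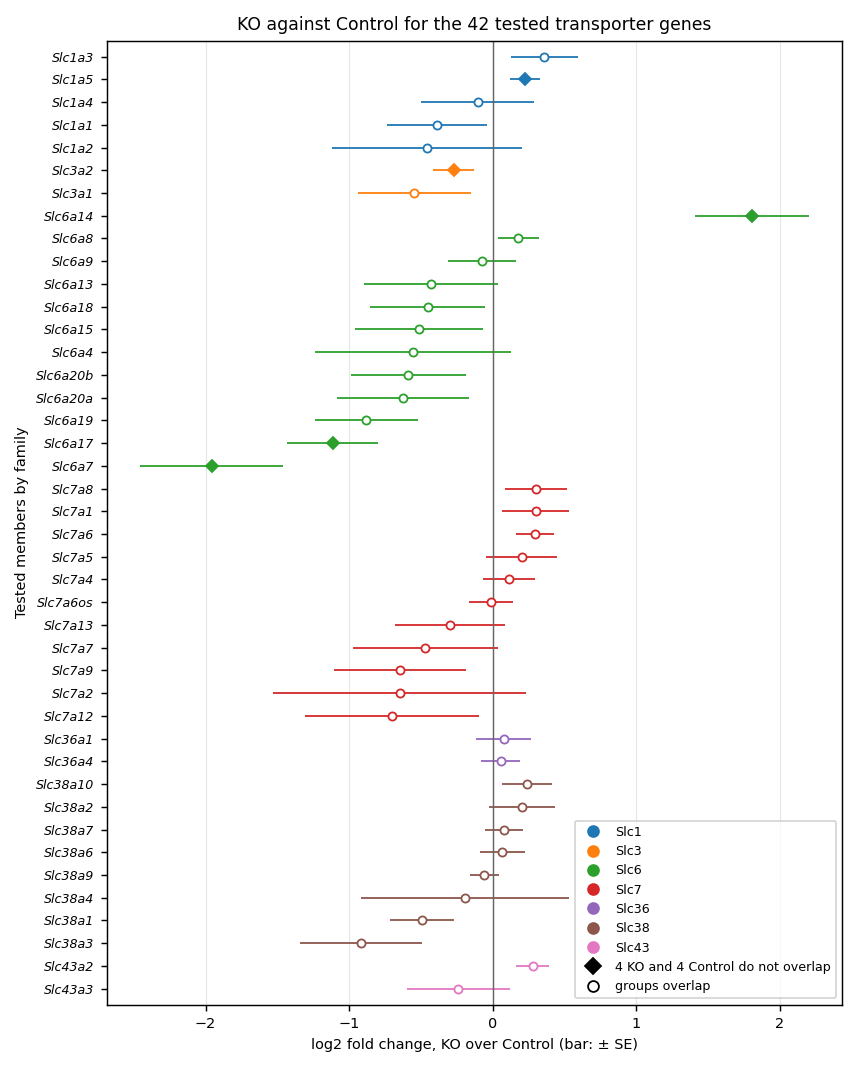
Log2 fold change of each of the 42 tested transporter genes, KO over Control (horizontal axis, bars ± SE), grouped and coloured by family; filled diamonds mark genes with no overlap between the 4 KO and the 4 Control values. Slc6a14 at 1.81 lies far to the right and Slc6a17 at -1.12 and Slc6a7 at -1.96 far to the left, with the other diamonds, Slc1a5 and Slc3a2, at 0.22 and -0.27.

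Levels between genes were compared as CPM per kilobase of exon, averaged over the 8 libraries. The highest levels were those of Slc3a1, the heavy chain of the apical cystine and dibasic amino acid carrier, at 51.8 CPM per kilobase, and Slc7a13, one of its light chains, at 50.8 CPM per kilobase. Slc6a8, the creatine carrier, followed at 47.5 CPM per kilobase, and Slc43a2, a carrier of large neutral amino acids, at 41.5 CPM per kilobase. Slc3a2, the other heavy chain, was at 33.8, Slc38a10 at 33.7, the light chain Slc7a8 at 31.1, Slc1a5 at 24.3, Slc6a18 at 21.1, Slc6a19 at 12.7, Slc38a2 at 12.1 and Slc7a7 at 10.4 CPM per kilobase. These 12 genes made up 84.2% of the summed level of the tested members. By family, Slc7 held 26.2% of that sum, Slc6 22.3%, Slc3 19.4%, Slc38 12.3%, Slc43 9.55%, Slc1 7.42% and Slc36 2.81%. Exon length is the union over a gene's annotated transcripts, so levels of genes with many long transcripts are understated.

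**Figure D2:**
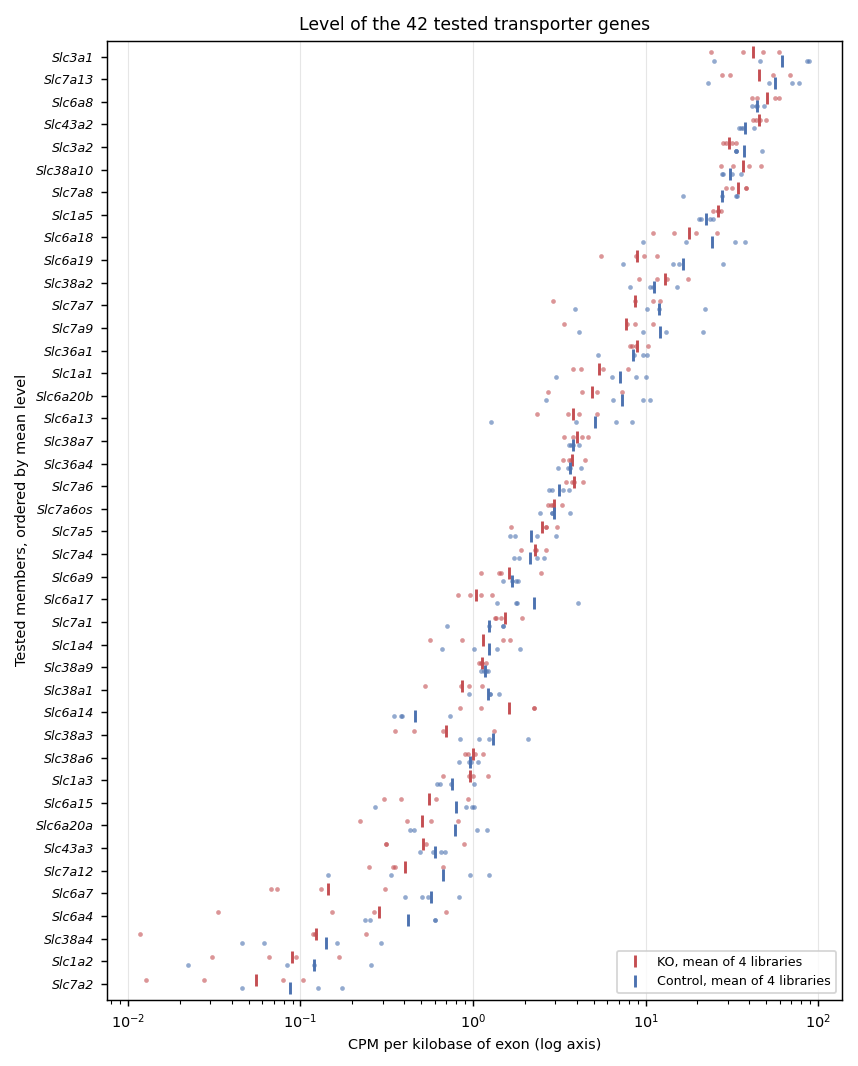
Level of the 42 tested transporter genes in CPM per kilobase of exon (horizontal log axis), in descending order of the mean over 8 libraries; points are libraries and ticks are group means of 4, KO above Control, and a single value of 0 (Slc7a2 in Control 1) is not drawn. Levels span from 51.8 CPM per kilobase for Slc3a1 to 0.0710 for Slc7a2, and KO and Control points overlap for most genes.

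Slc6a14 had 7.72, 2.89, 3.81 and 7.77 CPM in the KO libraries, against 2.54, 1.32, 1.31 and 1.20 CPM in the Control libraries. Every KO library was above every Control library, with KO 1 and KO 4 well above the other KO libraries and Control 1 above the other Control libraries. The counts behind these values were 375, 75, 97 and 155 in KO and 52, 55, 25 and 24 in Control. The log2 fold change was 1.81 ± 0.40 (SE), with an adjusted p of 0.05002 in edgeR's quasi-likelihood test, just above the threshold of 0.05. It passed in 9 of 19 alternative settings, with adjusted p between 0.000457 (DESeq2) and 0.157 (without Control 4) and log2 fold changes between 1.54 and 2.11. The leukocyte marker sum was also highest in KO 1 and KO 4. Csf1r carried most of it in both. Without Csf1r, KO 1 was the lowest and KO 4 the highest KO library. Of the 5 tested leukocyte markers, 4 had a positive log2 fold change and 1 a negative one. Csf1r and Cd68 were higher in every KO library than in any Control library, and the other tested ones overlapped. The part of leukocytes in the Slc6a14 difference was not tested.

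Slc6a14 lies on chrX, and its RefSeq promoter window of GRCm38.p6, from 250 bases before to 50 after the start site, is chrX:21714650-21714949 on the plus strand. It is shown with the window of Slc6a17, chr3:107517969-107518268 on the minus strand, since calcineurin is known for activating the NFAT transcription factors, which bind DNA together with AP-1, and the groups did not overlap for either gene. Of the other 3 genes without overlap, Slc3a2 had a window, with neither motif in it, and Slc6a7 and Slc1a5 are named only. Capitals mark an AP-1 motif, written TGACTCA on one strand and TGAGTCA on the other, and an NFAT core, written GGAAA on one strand and TTTCC on the other, each sequence running 5′ to 3′:
Slc6a14: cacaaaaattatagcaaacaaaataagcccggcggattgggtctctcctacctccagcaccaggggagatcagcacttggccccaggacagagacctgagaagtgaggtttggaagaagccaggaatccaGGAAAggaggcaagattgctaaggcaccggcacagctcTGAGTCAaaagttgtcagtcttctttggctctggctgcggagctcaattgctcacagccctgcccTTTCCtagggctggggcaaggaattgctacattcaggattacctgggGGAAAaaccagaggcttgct
Slc6a17: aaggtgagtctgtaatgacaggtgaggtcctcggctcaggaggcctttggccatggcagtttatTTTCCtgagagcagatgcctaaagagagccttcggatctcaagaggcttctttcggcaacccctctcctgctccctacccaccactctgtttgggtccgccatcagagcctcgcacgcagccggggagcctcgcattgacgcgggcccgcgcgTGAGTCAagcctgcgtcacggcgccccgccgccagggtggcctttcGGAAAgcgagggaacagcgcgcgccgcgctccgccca
The Slc6a14 window held 1 AP-1 match, starting at -82 from the start site, and NFAT core matches at -120, -17 and 31. The Slc6a17 window held 1 AP-1 match at -33 and NFAT core matches at -186 and 14. A second RefSeq start site of Slc6a17, further into the gene, had no AP-1 match in its window. That window held NFAT core matches at -233, -194 and -65. No match overlapped another. Searched on both strands, the AP-1 letters were in 5.20% of 32851 RefSeq promoter windows and the NFAT core letters in 61.3% of them. Among the 29 tested members with a window, 4 held the AP-1 letters (Slc3a1, Slc6a14, Slc6a17 and Slc7a1) and 16 the NFAT core; counted as windows, as for the background, these were 4 of 44 (9.09%) and 21 of 44 (47.7%). Matches describe letters in a window, not binding.

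Slc6a17 and Slc6a7 are transporters known from brain, Slc6a17 as a carrier of neutral amino acids into synaptic vesicles and Slc6a7 as a proline carrier. Slc6a17 had 8.38, 9.83, 11.4 and 13.2 CPM in KO, against 14.2, 18.2, 18.6 and 41.6 CPM in Control. The groups did not overlap, and Control 4 stood far above the rest. The log2 fold change was -1.12 ± 0.32 (SE; edgeR adjusted p = 0.129), and without Control 4 it was -0.67. Slc6a7 had 0.453, 0.231, 1.06 and 0.251 CPM in KO, against 1.76, 1.40, 1.88 and 2.85 CPM in Control, resting on 60 counts in all KO libraries and 187 in all Control libraries. Here too the groups did not overlap, and KO 3 was the KO library nearest to Control. The log2 fold change was -1.96 ± 0.50 (SE; edgeR adjusted p = 0.0899), and it passed in 3 of 19 alternative settings, DESeq2, limma-voom and without KO 3 (-2.58; edgeR adjusted p = 0.0180). Over all 19 the adjusted p ran from 0.00453 with DESeq2 to 0.282 with the animal number series term. The 6 neuron and Schwann cell markers summed to 3.11 to 3.62 CPM in KO and 2.84 to 4.36 CPM in Control, and their Snap25 was at 0 in every library.

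Across all 42 members, the 4 KO and 4 Control libraries did not overlap for 5 genes (11.9%), beside 9.4% of all genes. Slc6a14 and Slc1a5 were higher in every KO library and Slc6a17, Slc6a7 and Slc3a2 lower in every KO library, beside 5.6% and 3.8% of all genes in these directions.

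**Figure D3:**
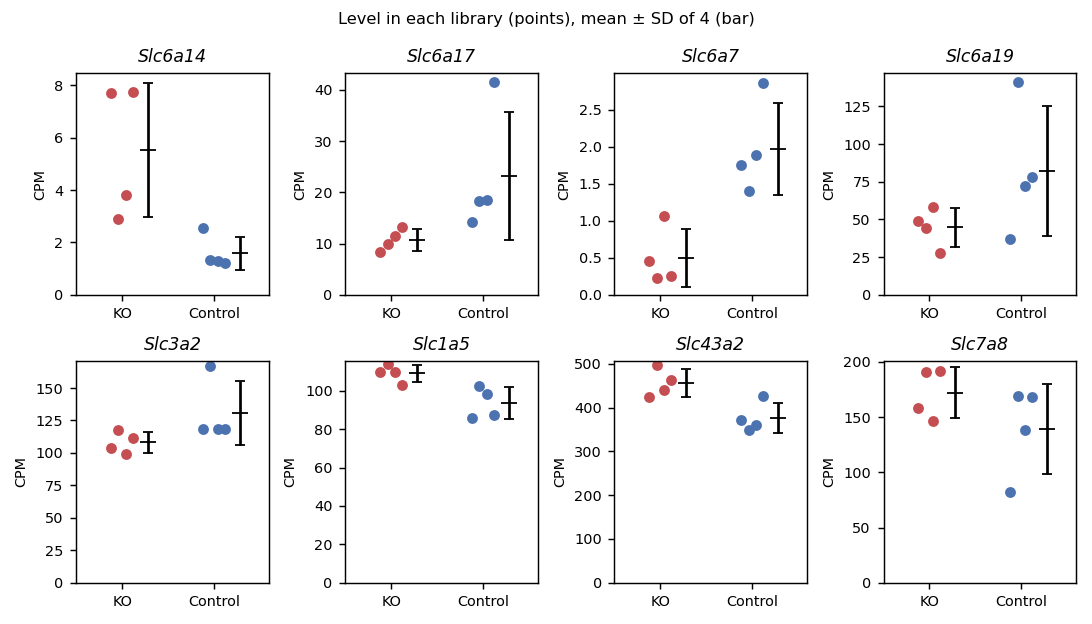
CPM of 8 transporter genes in each library (points) with mean ± SD of 4 libraries (bars), KO left of Control, each panel on its own axis from 0. KO and Control points are apart for Slc6a14, Slc6a17, Slc6a7, Slc3a2 and Slc1a5 and overlap for Slc6a19, Slc43a2 and Slc7a8, and single high Control points stand out for Slc6a17 (41.6 CPM) and Slc3a2 (167 CPM).

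The neutral amino acid carriers of the proximal tubule's apical membrane in Slc6 are Slc6a19, the main one, Slc6a18, and the proline carrier Slc6a20a. Slc6a20b is a paralogue of Slc6a20a. Slc6a19 had 48.8, 44.2, 58.2 and 27.6 CPM in KO and 37.3, 141, 72.2 and 78.2 CPM in Control. Control 1 lay within the KO range and the other Control libraries above it. The log2 fold change was -0.88 ± 0.36 (SE), with an unadjusted p of 0.0333 and an adjusted p of 0.311 in edgeR. Slc6a18 had 86.3, 64.5, 115 and 49.0 CPM in KO and 42.8, 145, 166 and 76.3 CPM in Control, and the groups overlapped widely (log2 fold change -0.45 ± 0.40). Slc6a20a and Slc6a20b gave log2 fold changes of -0.63 ± 0.46 and -0.59 ± 0.40. These paralogues could share reads. Slc6a20b also overlaps exons of the more strongly counted Sacm1l on the other strand, so the levels of both are uncertain.

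The subunits of the apical cystine and dibasic amino acid exchanger spread widely within both groups. Slc3a1 had 109, 83.5, 136 and 54.7 CPM in KO and 56.5, 201, 196 and 105 CPM in Control (log2 fold change -0.55 ± 0.39). Its light chain Slc7a9 had 23.2, 20.8, 29.7 and 9.07 CPM in KO and 11.1, 57.6, 35.0 and 25.8 CPM in Control (log2 fold change -0.65 ± 0.46). For its other light chain, Slc7a13, an acidic amino acid and cystine carrier, the values were 117, 66.4, 147 and 59.6 CPM in KO and 49.3, 152, 167 and 111 CPM in Control (log2 fold change -0.30 ± 0.38). In all 3 genes KO 4 was the lowest KO library and Control 1 the lowest Control library, and the groups overlapped. The ratio of Slc3a1 to the sum of both light chains, each per kilobase, was 0.757, 0.948, 0.749 and 0.771 in KO and 0.916, 0.957, 0.946 and 0.751 in Control, a far narrower range than that of the subunits. Slc3a1 shares exon bases with Prepl on the other strand, which had 49.1% of its counts.

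The level of such carriers followed the summed level of proximal tubule markers, most of it Kap, from library to library. For each of the 42 tested members, Pearson's r was computed over the 8 libraries between log2(CPM + 1) and the marker level. That level was the log2 of the summed CPM of the 15 proximal tubule markers, none of which is a member. Exact permutation p-values over 40320 pairings were adjusted over the 42 genes. The pairings exchanged libraries across KO and Control, although all 15 markers had a negative log2 fold change. This comparison was not planned and the members were chosen with earlier results known, so its p-values are descriptive. An r of 0.8 or more was found for 11 of 42 members (26.2%), beside 5.32% of all tested genes, and all 11 had adjusted exact permutation p between 0.00104 and 0.0408 for r. Slc6a20a was closest (r = 0.991, Spearman's rho = 1.00), followed by Slc3a1 (0.947 and 0.952), the serotonin transporter Slc6a4 (0.945 and 0.905), Slc6a18 (0.928 and 0.929) and Slc6a20b (0.915 and 0.881). The other 6 were Slc1a4 (r = 0.896), Slc7a9 (0.889), Slc7a13 (0.875), the glutamate carrier Slc1a1 (0.871), the glutamine carrier Slc38a3 (0.842) and Slc6a19 (0.819). Without KO 4 and Control 3, the libraries farthest from the median marker level, 10 of the 11 stayed at 0.8 or more and Slc1a4 gave 0.762. With both groups centred on their means, 9 of the 11 did, and no series of animal numbers held enough libraries for a value of its own. Spearman's rho of the 11 ran from 0.786 to 1.00. In exact permutation tests 12 of the 42 members passed for both r and rho. Slc6a19 and Slc7a4 passed for r alone, and Slc6a15 (r = 0.796, rho = 0.857) passed for rho alone. No p-value was computed for the centred values. CPM values of a library are parts of 1 total, so these relations are not independent of each other. Since Kap dominates the marker sum, the order of members, the farthest libraries and the covariate fit below rest largely on Kap. None of them was computed without it. Slc34a1 had the next highest CPM of the 15 markers. Its lowest libraries were Control 1 (476 CPM) and KO 4 (547 CPM). On Kap, Control 1 (5265 CPM) lay above KO 1, KO 2, KO 4 and Control 4. The farthest libraries could therefore differ without Kap.

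Relations of the opposite sign passed for 3 members: Slc38a10 (r = -0.904), the little-studied Slc7a4 (-0.887) and Slc38a2 (-0.872), the last of which gave -0.618 without the 2 farthest libraries. Over all 8 libraries, Slc7a8 (r = -0.130), Slc1a5 (0.033) and Slc3a2 (0.360) showed little linear relation. With both groups centred on their means, r was 0.128, 0.782 and 0.094, so Slc1a5 rose with the markers within the groups. Spearman's rho of Slc7a8 was -0.5. When the marker level was entered as a covariate in the edgeR fit, a setting chosen after seeing the data, the median log2 fold change of the 42 members was 0.12, and 21 of the 42 estimates changed sign, 18 of them to positive and 3 to negative. The 21 included Slc3a1 (0.18), Slc7a9 (0.13), Slc7a13 (0.31), Slc6a18 (0.31), Slc6a20a (0.12), Slc6a20b (0.10), Slc6a4 (0.19), Slc1a4 (0.49) and Slc1a1 (0.17). No member passed in that fit, and the estimates of Slc6a19 and Slc38a3 stayed negative. The estimate of Slc6a14 was 1.54 (edgeR adjusted p = 0.115), against 1.81 without the covariate.

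**Figure D4:**
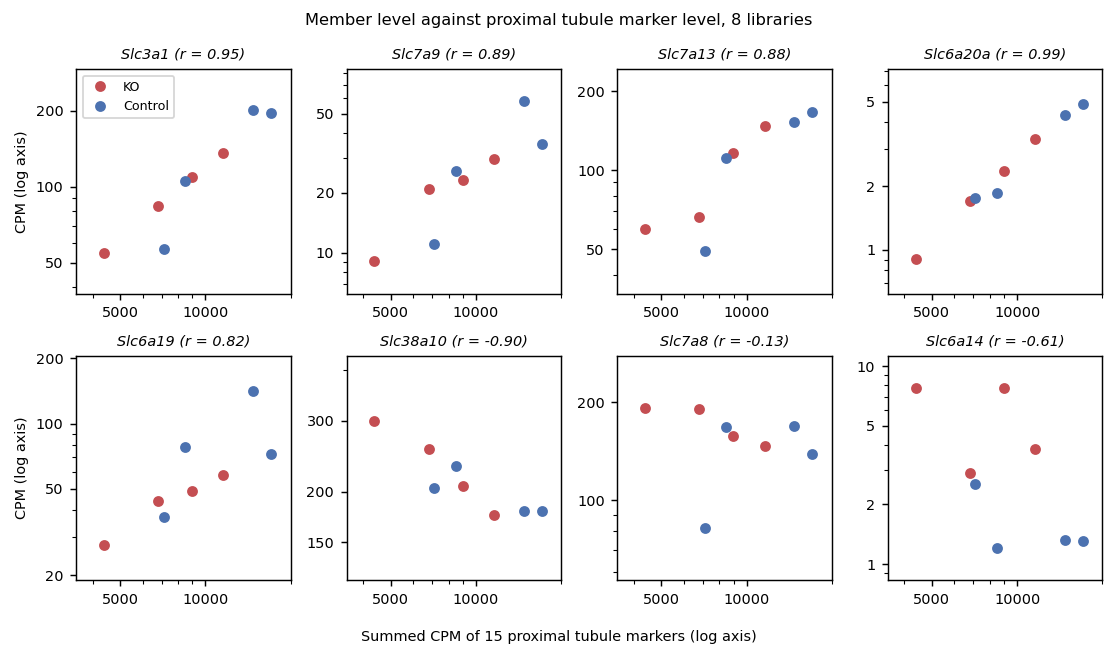
CPM of 8 transporter genes (vertical log axes) against the summed CPM of 15 proximal tubule markers (horizontal log axes) in the 8 libraries, KO and Control in separate colours, with Pearson's r on log2 values. Slc7a13 and Slc6a20a climb with the markers in both groups. Slc3a1, Slc7a9 and Slc6a19 climb too, but are lower in Control 3, the library highest on the markers, than in Control 2. Slc38a10 descends (r = -0.90), and Slc7a8 is spread without a linear trend over the 8 libraries (r = -0.13). Slc6a14 (r = -0.61) is higher in every KO library than in any Control library, least so for KO 2 against Control 1.

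Slc3a2, the heavy chain of the basolateral exchangers, had 104, 118, 99.5 and 111 CPM in KO, against 118, 167, 119 and 118 CPM in Control. No KO library reached a Control library, although the highest KO library and 3 of the Control libraries lay within about 1 CPM of each other and Control 2 was far above them. The log2 fold change was -0.27 ± 0.14 (SE; edgeR adjusted p = 0.413). Its light chain Slc7a8, a neutral amino acid exchanger, had 158, 191, 147 and 192 CPM in KO and 82.0, 169, 138 and 168 CPM in Control (log2 fold change 0.30 ± 0.22), and Control 1 alone lay far below the other libraries. Slc7a7, the light chain that exports cationic amino acids, had 40.1, 28.8, 36.7 and 9.62 CPM in KO and 13.02, 73.3, 33.8 and 39.6 CPM in Control (log2 fold change -0.47 ± 0.50). It shares exon bases with the more strongly counted Oxa1l on the other strand. The large neutral amino acid exchanger Slc7a5 had 6.15, 11.4, 9.87 and 9.82 CPM in KO and 6.05, 6.50, 8.67 and 11.2 CPM in Control (log2 fold change 0.20 ± 0.25). The ratio of Slc3a2 to the sum of Slc7a5, Slc7a6, Slc7a7 and Slc7a8, per kilobase, was 0.604, 0.621, 0.595 and 0.662 in KO and 1.36, 0.777, 0.768 and 0.653 in Control, and only KO 4 and Control 4 crossed over. Slc7a11, the cystine and glutamate exchanger that also pairs with Slc3a2, was not tested, with 9 counts in the KO libraries and 2 in the Control libraries together.

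Slc43a2, which carries large neutral amino acids without a heavy chain, had 424, 498, 439 and 463 CPM in KO and 371, 349, 361 and 425 CPM in Control. The groups crossed only at KO 1 and Control 4. The log2 fold change was 0.28 ± 0.12 (SE), with an unadjusted p of 0.0393 and an adjusted p of 0.327 in edgeR.

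In the Slc1 family, the glutamine exchanger Slc1a5 had 109.7, 114, 109.9 and 103 CPM in KO, against 85.5, 102.5, 98.5 and 87.3 CPM in Control. The groups did not overlap, by less than 1 CPM between KO 4 and Control 2, and the log2 fold change was 0.22 ± 0.10 (SE; edgeR adjusted p = 0.371). Slc1a1, the glutamate and cysteine carrier of the proximal tubule, had 46.7, 35.1, 65.5 and 31.4 CPM in KO and 24.9, 83.6, 72.6 and 52.9 CPM in Control (log2 fold change -0.39 ± 0.35). The glial glutamate carriers Slc1a3 and Slc1a2 were low, at 0.859 and 0.105 CPM per kilobase, with log2 fold changes of 0.36 ± 0.23 and -0.46 ± 0.66, and the neutral amino acid exchanger Slc1a4 gave -0.11 ± 0.39.

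No Slc38 or Slc36 carrier separated the groups. Slc38a10 had 207, 256, 176 and 299 CPM in KO and 204, 179, 179 and 231 CPM in Control (log2 fold change 0.24 ± 0.17). Slc38a2, a neutral amino acid carrier that cells raise when starved of amino acids, had 118, 103, 80.6 and 156 CPM in KO and 135, 94.2, 71.7 and 97.2 CPM in Control (log2 fold change 0.20 ± 0.23). The lysosomal arginine sensor Slc38a9 varied little, with 19.9, 18.8, 18.5 and 18.04 CPM in KO and 19.4, 20.4, 19.9 and 18.6 CPM in Control. Its log2 fold change was -0.06 ± 0.10 and turned to 0.09 with library totals in place of scaled sizes. The proton-coupled carriers Slc36a1 and Slc36a4 gave 0.08 ± 0.19 and 0.05 ± 0.13, and Slc38a1 and Slc38a3, both glutamine carriers, gave -0.49 ± 0.22 and -0.92 ± 0.42 (edgeR adjusted p = 0.361 and 0.370).

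Among the carriers of transmitters and related compounds, the creatine carrier Slc6a8 had 229.8, 295, 217 and 309.6 CPM in KO and 231, 253, 216 and 228 CPM in Control. The groups overlapped, and the log2 fold change was 0.18 ± 0.14 (SE; not past the edgeR test). The GABA carrier Slc6a13 was at 4.45 CPM per kilobase and the glycine carrier Slc6a9 at 1.65 CPM per kilobase, with log2 fold changes of -0.43 ± 0.47 and -0.07 ± 0.24; Slc6a9 shares exons with B4galt2, which had 52.9% of its counts, and with Ccdc24. Slc6a4 was at 0.355 CPM per kilobase, with 1.21, 0.694, 3.15 and 0.150 CPM in KO and 1.07, 2.72, 2.72 and 1.15 CPM in Control. Including these, the 23 tested members for which single-library values were not planned had log2 fold changes from -0.92 to 0.36, adjusted p of 0.361 or more in edgeR, and levels from 0.0710 to 8.67 CPM per kilobase.

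Of the 20 members not tested, 9 had no count in any library, among them the glutamate carriers Slc1a6 and Slc1a7, the noradrenaline carrier Slc6a2, and Slc6a11, Slc6a21, Slc7a10, Slc7a14 and Slc38a8. At 219759292 counts in all, 0 counts allows a level of up to 0.0137 CPM over the 8 libraries, on counting error only. The highest of the others was the cationic amino acid carrier Slc7a3, with 21 counts in KO and 25 in Control libraries together. The dopamine carrier Slc6a3 had 5 KO and 4 Control counts, Slc36a2 had 7 KO and 4 Control counts, and Slc43a1 had 5 KO and 6 Control counts. Slc6a16 had 6 KO counts and 1 Control count, and Slc38a11 had 1 KO count and 6 Control counts. Slc36a3 had 2 counts and Slc38a5 1 count, in KO alone, and the glycine carrier Slc6a5 and Slc7a15 had 3 counts each, in Control alone, all at or under the limit of 3 counts taken for 0.

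Genes that work with these carriers were read from 5 lists. In the list of amino acid and amine enzymes, 30 of 34 genes were tested, 2 fell, 0 rose and 28 did not pass, and 6 (20%) had an unadjusted p under 0.05; the median log2 fold change was -0.32. Ckb, a creatine kinase that buffers ATP with the substrate Slc6a8 carries, had 270.3, 224, 134 and 201 CPM in KO, against 554, 407, 344 and 518 CPM in Control (log2 fold change -1.14 ± 0.23; edgeR adjusted p = 0.0358). Maob, a monoamine oxidase, had 28.2, 28.7, 30.1 and 32.5 CPM in KO, against 80.1, 41.3, 46.1 and 59.5 CPM in Control (log2 fold change -0.93 ± 0.19; edgeR adjusted p = 0.0433). Neither gene's groups overlapped, and the share of all genes called lower was 0.838%. Ckb passed in 10 and Maob in 11 of 20 alternative settings. Distal convoluted tubule and thick ascending limb markers were also lower in sum in KO. Of the 8 distal convoluted tubule markers, 4 were called lower. Tmem72 (log2 fold change 0.24) and Sall3 (0.17) were positive. Slc12a3 had the highest CPM of the 8, and its groups overlapped (log2 fold change -0.41, edgeR adjusted p = 0.492). The thick ascending limb sums were 2800 to 5511 CPM in KO, against 7512 to 12260 CPM in Control. Umod made up most of each, with 4548, 4039, 4422 and 2427.5 CPM in KO and 9359, 6029, 8901 and 10951 CPM in Control. Only Umod, 1 of the 6 markers, was called lower, and the groups overlapped for the others. The part of these markers in the Ckb and Maob differences was not tested.

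The other lists held no gene past the edgeR threshold, and their counts at an unadjusted p under 0.05 are to be read beside the 13.9% of all genes that reached it. Of 27 genes of amino acid sensing upstream of mTORC1, 2 (7.41%) had an unadjusted p under 0.05 and DESeq2 called 1; the nearest was Sesn1, a leucine-binding inhibitor of that pathway, with 29.0, 28.1, 29.7 and 28.4 CPM in KO, against 44.3, 38.5, 34.0 and 40.0 CPM in Control (log2 fold change -0.45, edgeR adjusted p = 0.0755). The groups did not overlap. Castor2, a partner of the arginine sensor Castor1, gave -0.40. Of 21 tested genes of the amino acid starvation response, 2 (9.52%) had an unadjusted p under 0.05, Mthfd2 (log2 fold change 0.34) and Ddit4 (0.38), and the median was 0.04. Of 11 tested glutathione and cystine genes 3 (27.3%) did, with Ggt6 at 0.89 and Chac2 at -0.34 the nearest, a median of -0.18 and 1 call by limma-voom. Of 14 tested genes of other amino acid carrier families 2 (14.3%) did, Slc22a3 (1.30) and Slc44a1 (0.25), with a median of -0.10.

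The taurine carrier Slc6a6, left out by the rule, had 43.4, 37.1, 73.1 and 21.7 CPM in KO and 30.9, 108, 74.8 and 74.2 CPM in Control (log2 fold change -0.72, edgeR adjusted p = 0.449), and the betaine carrier Slc6a12 was too low to be tested.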

How the data were processed

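RNA was sequenced from sorted fragments of 8 mice. The deposited table holds whole read counts per gene; the authors used bcl2fastq 2.20, fastp 0.20.0, STAR 2.7.4a and genome build GRCm38.p6, per the submitters' processing notes, while for the counting program, its annotation and its use of strand the entry is: not given in the sources used here. Opposite-strand neighbours may therefore share reads: 11 tested members share exon bases with another gene, and in 5 (Slc1a1, Slc3a1, Slc6a9, Slc6a20b, Slc7a7) the partner had over 10% of their counts. Names, positions and exon lengths came from GENCODE annotation of GRCm38 for 42347 identifiers; 69 unnamed ones held 0.0199% of counts.

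Groups followed the titles; each library is a different animal, and replicate numbers only name libraries. Genes with 10 counts in 4 libraries were fitted with edgeR 4.0.16 (R 4.3.3, TMM, quasi-likelihood, KO over Control, Benjamini-Hochberg over all genes, 0.05), tested on simulated data. SE was derived from the fold change and the F statistic. DESeq2 1.42.0, limma 3.58.1 and other alternatives, 18 planned and 2 chosen after seeing the data, were run on the whole table. Single-library values are given for members past p of 0.05, the 12 highest per length, those whose groups did not overlap at 1 CPM or more, and known kidney carriers, partners and the lysosomal sensor; in lists, for genes past the threshold or the 2 with the smallest p. Promoter windows are RefSeq's. Members, gene lists and tests were chosen with earlier results of these data known. Values in CPM carry counting error that is widest for genes with few counts, and 3 counts was taken as the limit of 0.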

Additional observations from a re-analysis of the deposited data

Results flagged for a closer look

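Within the 4 libraries of a group, 4 of 84 groups of values (4.76%) had 1 library set apart by its gap to the nearest other library relative to the range; chance gives about 1 in 20. Slc3a2 in Control 2 was at 167.29 CPM, against 118.62 CPM in the nearest Control library. Slc6a14 in Control 1 was at 2.54 CPM, with the nearest Control library at 1.32 CPM; leaving Control 1 out gave a log2 fold change of 2.11 and an adjusted p of 0.0458 in edgeR. Slc6a15, a carrier of branched-chain amino acids and proline, was at 2.10 CPM in Control 1, with the nearest Control library at 7.11 CPM. Slc6a17 in Control 4 was at 41.6 CPM, with the nearest Control library at 18.6 CPM.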

How the results depend on the processing

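Numbers of calls moved most. Over all genes, 177 were higher and 121 lower in KO; DESeq2 gave 426 and 327, limma-voom 283 and 229, a filter at 5 CPM 62 and 78, and an animal number series term 5 and 24. A file name form term gave 105 higher, the proximal tubule marker covariate 65 higher, and leaving out KO 4 and Control 1 together 35 and 48; the last 2 settings were chosen after seeing the data. Leaving out 1 library gave 15 to 228 higher and 21 to 123 lower. Against 0 members, 1 was higher (Slc6a14) with DESeq2, limma-voom, upper-quartile scaling, library totals, edgeR's own filter, no filter, or mitochondrial genes removed, and 0 to 1 with 1 library left out; 2 were lower with DESeq2, 1 with limma-voom and 0 to 1 with 1 library left out. Against 2 enzyme calls there were 0 with library totals, the series term or KO 4 and Control 1 left out, 1 with the file name term, and 0 to 1 with 1 library left out; limma-voom called 1 glutathione gene and DESeq2 1 sensing gene. The cause of these moves was not tested.

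With the marker covariate 21 of 42 members' estimates turned sign, and of the 20 members chosen by the naming rule these were Slc1a1 (0.17), Slc3a1 (0.18), Slc6a18 (0.31), Slc7a13 (0.31), Slc7a7 (0.21), Slc7a9 (0.13), Slc38a10 (-0.0085) and Slc38a2 (-0.12). Slc38a9 turned with library totals (0.0896), and Slc7a7 ran from -0.77 to 0.0063 with 1 library left out, the highest without Control 2. No paired analysis was possible because the labels pair no animals across groups; replicate numbers here follow accession order and only name libraries. Depth limits Slc6a7, Slc7a2, Slc7a12, Slc38a4, Slc1a2, Slc6a4, Slc43a3 and Slc6a20a, each under 3 CPM on average over the 8 libraries. Slc6a20a, closest to the proximal tubule marker level, had 18 to 180 counts in a library.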
